A study of Sus scrofa with 8 samples.

Results

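The genes described here were 8 neural basic helix-loop-helix (bHLH) factor genes of the pig: NEUROG1, NEUROG2, NEUROG3, ATOH1, NEUROD1, NEUROD2, OLIG2 and HES5. They were taken by name from the RefSeq annotation of the Sscrofa11.1 assembly, which names all 8 of them among 28077 genes on chromosomes 1 to 18 and X, of which 19487 are protein-coding. Their chromatin was read from the narrow peaks of ChIP-seq for H3K4me3, H3K27ac and the insulator protein CTCF in pig embryonic fibroblasts (PEFs). The PEFs came from fetuses of Large White pigs aged 35 days, were kept in culture for 24 h and received no treatment. Each mark had 2 libraries, giving 1 condition and 6 peak lists of 37932 to 81164 peaks, and the labels do not say whether the 2 libraries of a mark came from separate animals or cultures, so the spread between them may be technical. The cells were profiled in bulk, so fewer cells carrying a mark and less of the mark per cell cannot be told apart.

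Neural bHLH factors bind the E-box as dimers with broadly expressed E-proteins. Neurogenins and ATOH1 commit progenitors to neuronal or sensory fates, and NEUROD factors then carry differentiation forward. OLIG2 acts in motor neuron and oligodendrocyte progenitors, and HES5 is a repressor induced by Notch signalling that holds progenitors undifferentiated. H3K4me3 is laid down at promoters, above all those rich in CpG, whereas H3K27ac marks promoters and enhancers that are in use. Promoters of developmental regulators can hold H3K4me3 together with the repressive mark H3K27me3, which was not profiled in these cells.

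All 8 genes had an H3K4me3 peak within 1 kb of the annotated transcription start site (TSS) in both libraries, while 7 of the 8 had no H3K27ac peak there in either library. The exception was NEUROG2, whose H3K27ac peak was weak. None of the 8 lacked both histone marks. When the summit of the peak had to lie within 1 kb in both libraries, H3K4me3 was kept at 5 genes and lost at NEUROD2, ATOH1 and OLIG2, whose peaks reached the window from a summit outside it in at least 1 library. Over all annotated genes, 55.4% had H3K4me3 at the TSS in both libraries, 6.89% had H3K4me3 in both and H3K27ac in neither, and 39.3% had neither mark in either library. Among protein-coding genes these shares were 68.9%, 8.25% and 27.5%. Of the 13423 protein-coding genes with H3K4me3 in both libraries, 1608, or 12%, had no H3K27ac peak. H3K27ac was present in both libraries at 1 of the 8 genes, against 50.1% of all genes and 60.7% of protein-coding genes. The genes were chosen with results of these data known, so these counts are descriptions and were not tested. No peak means that no region passed the threshold of the deposited list, not that the mark was absent.

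The sequences upstream of the TSSs differed widely in CpG content. The 250 bases before the TSS are shown for 4 genes that span this range, read from Sscrofa11.1 in the direction of transcription, with CpG dinucleotides in capitals. HES5 held 38 CpGs, the most of the 8, and NEUROG2 held 26. ATOH1 held 12 although its H3K4me3 enrichment was among the highest, and NEUROD2 held 5, the fewest.
HES5, chr6:64410542-64410791, minus strand: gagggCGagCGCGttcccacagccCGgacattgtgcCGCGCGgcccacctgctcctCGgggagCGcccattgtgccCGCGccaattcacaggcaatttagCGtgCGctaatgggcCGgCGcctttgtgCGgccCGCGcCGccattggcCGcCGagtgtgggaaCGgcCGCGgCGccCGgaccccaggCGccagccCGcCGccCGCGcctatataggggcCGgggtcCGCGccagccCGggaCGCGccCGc
NEUROG2, chr8:110200431-110200680, plus strand: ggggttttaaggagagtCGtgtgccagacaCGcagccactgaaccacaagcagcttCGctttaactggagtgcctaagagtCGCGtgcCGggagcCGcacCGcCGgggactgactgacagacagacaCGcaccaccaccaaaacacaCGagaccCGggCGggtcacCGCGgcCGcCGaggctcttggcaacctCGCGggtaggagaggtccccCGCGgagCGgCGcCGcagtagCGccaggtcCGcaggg
ATOH1, chr8:125770620-125770869, minus strand: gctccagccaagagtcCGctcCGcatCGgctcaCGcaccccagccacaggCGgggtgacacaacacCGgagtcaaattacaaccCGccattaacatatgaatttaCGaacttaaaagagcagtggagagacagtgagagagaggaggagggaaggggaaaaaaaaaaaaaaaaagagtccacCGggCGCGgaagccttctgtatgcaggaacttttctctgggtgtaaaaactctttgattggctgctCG
NEUROD2, chr12:22709223-22709472, plus strand: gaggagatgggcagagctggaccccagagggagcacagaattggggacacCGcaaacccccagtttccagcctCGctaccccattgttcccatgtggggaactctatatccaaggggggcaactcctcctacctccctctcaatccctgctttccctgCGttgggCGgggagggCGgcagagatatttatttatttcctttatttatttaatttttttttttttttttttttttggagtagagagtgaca
The ratio of observed to expected CpGs in these windows was 1.07 in HES5, 0.933 in NEUROG2, 0.748 in ATOH1 and 0.336 in NEUROD2. The low-CpG stretch of NEUROD2 includes a run of T shortly before the annotated start, and its H3K4me3 peak lay downstream of that start, as described with the NEUROD genes.

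Over 1001 bases centred on the TSS, the observed to expected CpG ratio was 0.885 in NEUROG1, 0.889 in NEUROG2, 0.703 in NEUROG3, 0.750 in ATOH1, 0.718 in NEUROD1, 0.440 in NEUROD2, 0.808 in OLIG2 and 0.864 in HES5. The median of the 8 was 0.779. The median was 0.655 over protein-coding genes, 0.701 over those with H3K4me3 but no H3K27ac, 0.758 over those with both marks and 0.271 over those with neither. NEUROD2 alone among the 8 lay below the median of protein-coding genes.

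**Figure D1:**
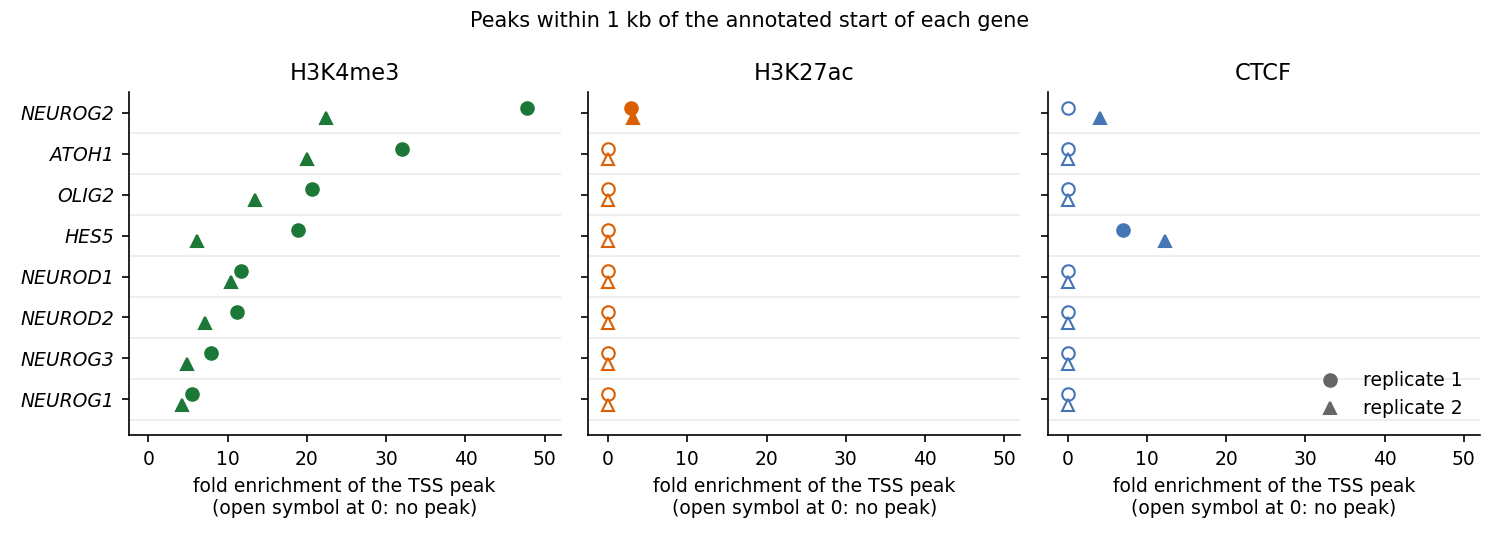
Fold enrichment of the strongest peak within 1 kb of the annotated TSS of each gene (x axis, ratio over the control, no unit) for H3K4me3, H3K27ac and CTCF; circles are replicate 1, triangles replicate 2, and an open symbol at 0 marks a library with no peak. H3K4me3 ran from 47.8 and 22.4 at NEUROG2 down to 5.46 and 4.19 at NEUROG1, while H3K27ac was seen at NEUROG2 and CTCF in both libraries at HES5.

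H3K4me3 enrichment at the TSS covered a wide range among the 8 genes. Fold enrichment, the ratio of ChIP signal over the control that the peak caller gives for a peak, had a median of 15.3 in replicate 1 and 8.81 in replicate 2 over the 8 genes. The 1608 protein-coding genes with H3K4me3 and no H3K27ac had medians of 20.6 and 11.4, and the 11476 genes with both marks had 55.5 and 26.96. All 8 genes were higher in replicate 1 than in replicate 2, as were the lists as a whole, whose median H3K4me3 peak was 9.19 in replicate 1 and 6.15 in replicate 2. The order of the genes is therefore given within each replicate. NEUROG2, ATOH1 and OLIG2 held the highest 3 values in both libraries, and NEUROG3 and NEUROG1 the lowest 2. The values overlapped between every pair of neighbours in the order of the means, so neighbours did not differ beyond the spread of their replicates, a spread that includes the shift between libraries. Within each library, 6 of the 7 pairs of neighbours kept their order in both. The exception was HES5 and NEUROD1, since HES5 (6.16) lay below NEUROD1 (10.5) and also below NEUROD2 (7.15) in replicate 2. Across libraries, both values of NEUROG2, of ATOH1 and of OLIG2 lay above both values of NEUROD1, NEUROD2, NEUROG3 and NEUROG1.

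The neurogenins gave both ends of this range. NEUROG2 (chr8:110200681-110206081, plus strand, 2 exons), which drives neurogenesis in cortex and spinal cord, had an H3K4me3 enrichment of 47.8 in replicate 1 and 22.4 in replicate 2 (35.1 ± 17.9, SD, n = 2). Its peak was 3626 and 4444 bp wide and had its summit 69 and 87 bp upstream of the TSS. Among protein-coding genes with H3K4me3 and no H3K27ac these enrichments would stand at the 95.3 and 92.9 percentiles, but among genes with both marks at the 32.5 and 29.2 percentiles.

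NEUROG2 was the gene of the 8 with H3K27ac at the TSS. The peak had an enrichment of 2.92 in replicate 1 and 3.11 in replicate 2 (3.01 ± 0.132, SD, n = 2), was 617 and 784 bp wide, and had its summit in the intron 134 and 443 bp after the TSS. Its −log10 q-values were 3.30 and 3.11, so it was not kept when a −log10 q-value of at least 5 was required, and then all 8 genes had H3K4me3 without H3K27ac. The median H3K27ac peak of these lists had an enrichment of 4.84 and 4.75, above both values of NEUROG2.

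NEUROG2 also had the greatest length of H3K4me3 within 5 kb of the TSS among the 8, in both libraries. A peak upstream spanned 8.17 to 3.75 kb before the TSS in replicate 1 (enrichment 45.2) and 8.19 to 3.20 kb before it in replicate 2 (18.3), and a peak over the end of the gene reached 22.5 and 20.4 with summits 5.69 and 5.61 kb after the TSS. Together the peaks covered 5.83 and 8.49 kb within 5 kb of the TSS, and 57.4% and 91.1% of the gene body. The upstream peak overlapped a weak H3K27ac peak (3.48 and 2.93), and the peak at the end of the gene overlapped none. A separate H3K27ac peak lay 11.09 and 11.15 kb upstream (4.06 and 4.40).

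NEUROG1 (chr2:137763091-137766787, minus strand, 1 exon), a determination factor of cranial sensory neurons, had the lowest H3K4me3 enrichment of the 8, at 5.46 and 4.19 (4.83 ± 0.899, SD, n = 2). The peak was 1300 and 1391 bp wide, with summits 289 and 254 bp upstream of the TSS, and covered 19.9% and 15.6% of the gene. A stronger H3K4me3 peak, of 12.6 in both libraries, had its summit 9.98 and 9.93 kb upstream, with no annotated gene start within 1 kb and no H3K27ac. That upstream peak was 2234 and 2765 bp wide and its CpG ratio was 0.899 and 0.846.

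NEUROG3 (chr14:72604203-72606362, minus strand, 2 exons), which specifies endocrine cells of the pancreas, had an H3K4me3 enrichment of 7.92 and 4.93 (6.43 ± 2.11, SD, n = 2). Its peak ran from 271 bp before to 1173 bp after the TSS in replicate 1 and from 266 bp before to 1156 bp after it in replicate 2, with the summits in the coding exon. It was the only H3K4me3 peak within 20 kb in both libraries. The gene lies inside the span of C14H10orf35, which is transcribed from the opposite strand and starts 47.5 kb away, and the peak lists carry no strand. The start of C14H10orf35 also had H3K4me3 (16.7 and 15.9) and no H3K27ac.

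ATOH1 (chr8:125768232-125770619, minus strand, 1 exon), which specifies hair cells of the inner ear and cerebellar granule neurons, had H3K4me3 at 31.9 and 19.9 (25.9 ± 8.47, SD, n = 2). The peak was 3324 and 3828 bp wide and covered 78.4% and 90.6% of the gene. Its summit lay 64 bp after the TSS in replicate 1 and 1037 bp before it in replicate 2. A further peak at 6.13 and 6.21 kb downstream (31.4 and 13.1) stood at the start of LOC106507805, a long non-coding RNA on the same strand, and a weaker peak (6.01 and 4.19) followed at 11.02 and 11.09 kb. None of these 3 peaks overlapped H3K27ac, and the nearest H3K27ac peak was 58.4 and 58.5 kb upstream.

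NEUROD1 (chr15:87175629-87179953, minus strand, 2 exons), a differentiation factor of neurons and pancreatic endocrine cells, had the closest replicates, at 11.7 and 10.5 (11.07 ± 0.847, SD, n = 2). The peak width differed more than the enrichment, at 883 and 2125 bp. Another H3K4me3 peak lay 2.73 and 2.79 kb upstream of the TSS, with an enrichment of 13.6 in replicate 1, above that of the TSS peak, and of 5.92 in replicate 2, below it. In replicate 2, 2 short peaks of 3.39 and 3.09 followed in the gene body, and the TSS peak reached 991 bp into the gene against 318 bp in replicate 1. The covered share of the gene was 7.38% in replicate 1 and 42.3% in replicate 2. No H3K27ac peak lay within 52 kb. The next gene downstream, CERKL, starts 20.4 kb away and had H3K4me3 at 47.5 and 17.7, also without H3K27ac.

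NEUROD2 (chr12:22709473-22713785, plus strand, 2 exons), which acts in maturing cortical neurons, had H3K4me3 at 11.2 and 7.15 (9.17 ± 2.86, SD, n = 2), placed over the gene rather than its annotated start. In replicate 1 the peak ran from 24 bp before to 2665 bp after the TSS, and in replicate 2 from 652 to 3711 bp after it, with summits at 878 bp in the intron and at 1668 bp in the coding exon. The sequence under these peaks was CpG-rich, with ratios of 0.768 and 0.784, unlike the window before the TSS shown for this gene. A stronger H3K4me3 peak (54.4 and 34.1) had its summit 10.02 and 10.3 kb upstream, with no annotated gene start within 1 kb. It overlapped H3K27ac (7.77 and 8.48) and CTCF (12.1 and 7.90) peaks. That H3K27ac peak was the one nearest to NEUROD2, ending 9.52 and 9.59 kb from its TSS.

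OLIG2 (chr13:196596838-196602197, plus strand, 2 exons) carried the widest H3K4me3 peak of the 8, of 5640 and 9143 bp, with an enrichment of 20.6 and 13.4 (17.0 ± 5.09, SD, n = 2). It reached from 1447 bp before to 4192 bp after the TSS in replicate 1 and from 2064 bp before to 7078 bp after it in replicate 2, which covered the whole gene. In width it stood at the 99.2 and 99.8 percentiles of protein-coding genes with H3K4me3 and no H3K27ac, but in enrichment at the 49.9 and 62.2 percentiles. Both summits, 1919 and 2016 bp after the TSS, were in the 5′ UTR. No H3K27ac peak lay within 100 kb of the TSS in either library, and the nearest was 145 kb away in both. Its paralog OLIG1, which starts 47.2 kb downstream on the same strand, had H3K4me3 at 12.1 and 6.01 and no H3K27ac.

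HES5 (chr6:64409110-64410541, minus strand, 3 coding exons), the Notch-induced repressor of the group, had H3K4me3 at 18.8 and 6.16 (12.5 ± 8.97, SD, n = 2), the largest relative gap between replicates of the 8. The peak was 1737 and 2134 bp wide and covered 65.8% and 71.1% of the gene. HES5 was the gene whose nearest neighbour with both marks was closest: PANK4 starts 3.10 kb downstream, with H3K4me3 of 41.2 and 18.7 and H3K27ac of 20.7 and 17.5. The H3K27ac peak of PANK4 began 3.20 and 3.23 kb from the HES5 start, so HES5 counted as carrying H3K27ac when the window was widened to 5 kb. Upstream, a peak of H3K4me3 alone (15.8 and 9.12) lay 13.6 kb from the TSS, and the next gene, FAM213B, had both marks.

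**Figure D2:**
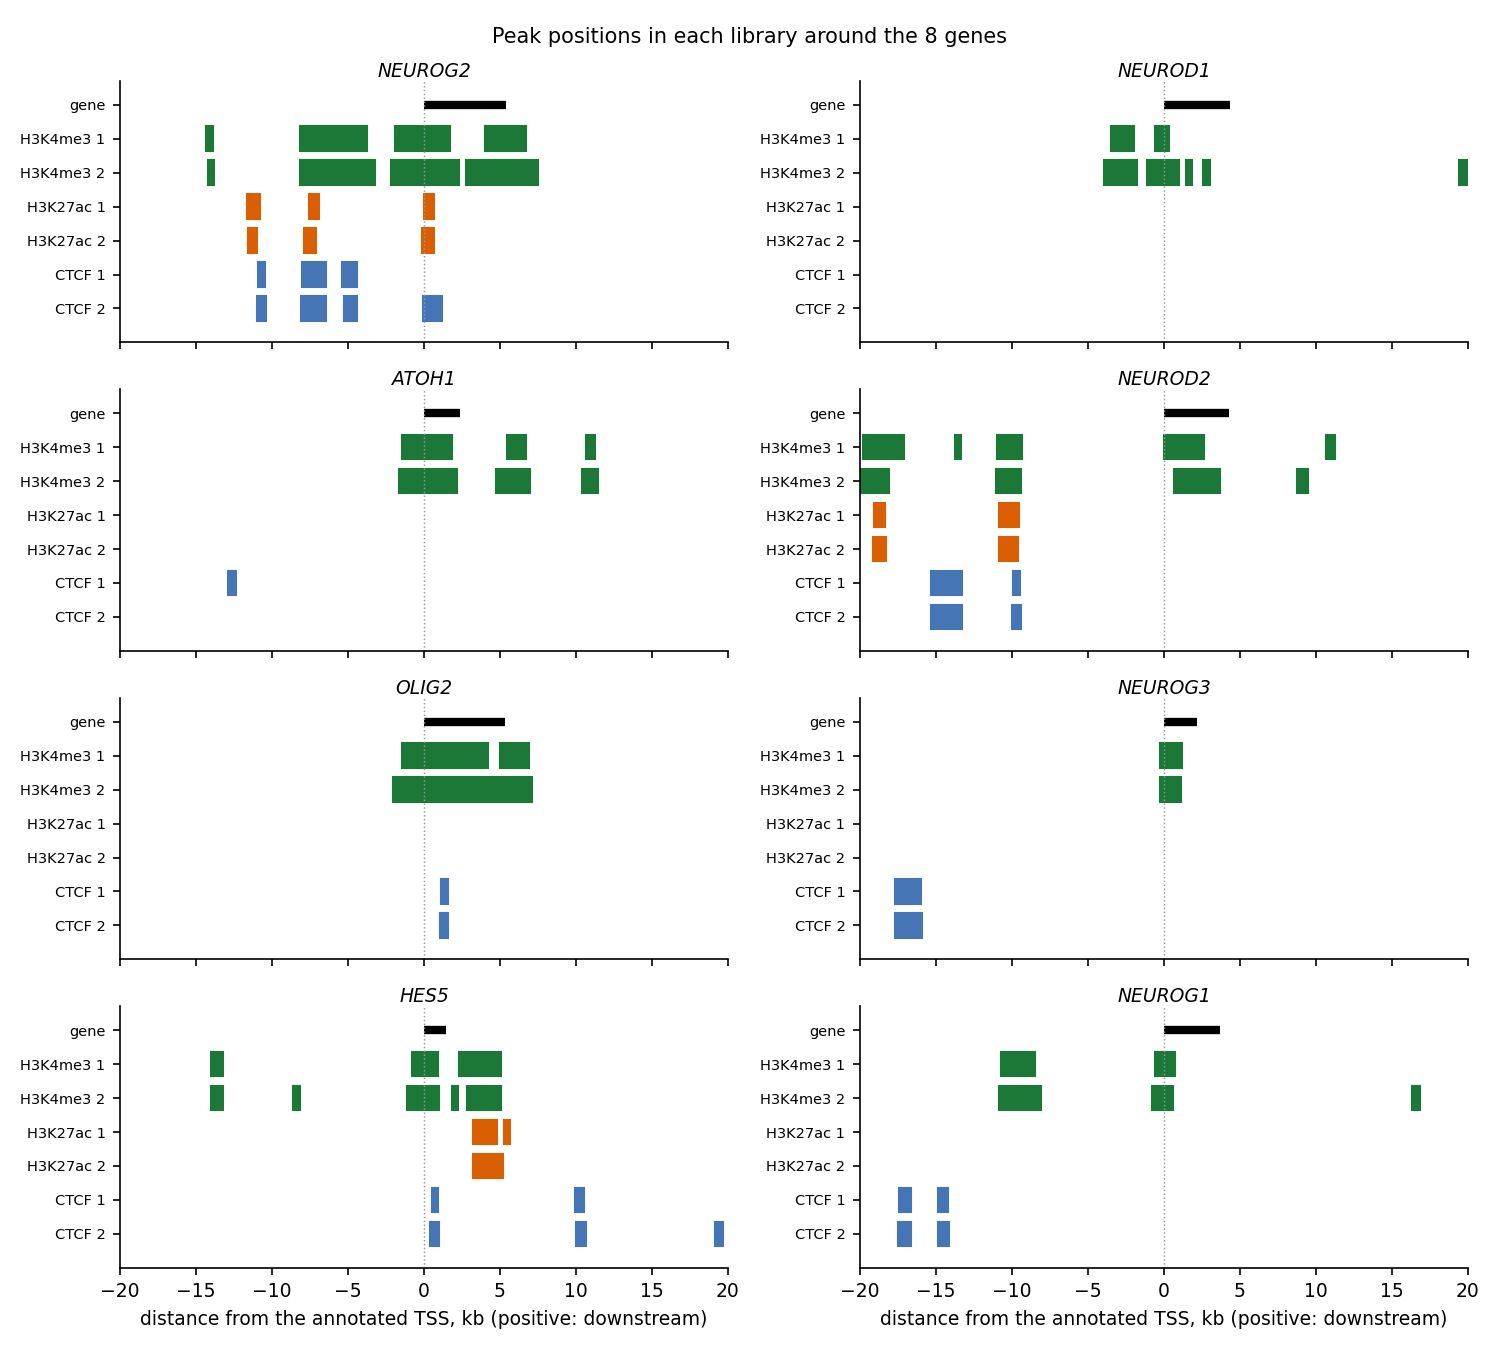
Positions of H3K4me3 (green), H3K27ac (orange) and CTCF (blue) peaks in each library within 20 kb of the annotated TSS of each gene; the x axis is the distance from the TSS in kb with downstream positive, the black bar is the gene, and 1 and 2 are the replicates. In replicate 1 an H3K4me3 peak spanned the TSS in every panel, and in replicate 2 in every panel but that of NEUROD2, where it began 652 bp after the TSS. The TSS peak of OLIG2 reached 4.19 kb past the start in replicate 1 and 7.08 kb in replicate 2. No H3K27ac lay within 20 kb at NEUROD1, NEUROG1, NEUROG3, ATOH1 and OLIG2.

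Covered length includes the peak of PANK4 at HES5 and, in replicate 2, the edge of the LOC106507805 peak at ATOH1. Ranked among protein-coding genes with H3K4me3 and no H3K27ac, the 7 genes other than HES5 stood higher in covered length than in enrichment in both libraries. For ATOH1 in replicate 2 the percentiles were close, at 89.0 and 87.8. Its own peak of 3828 bp lay between the 85 and 90 percentiles of covered length (3646.85 and 4288.6 bp), so without that edge the order may not hold. NEUROD2 stood at the 78.8 and 78.6 percentiles in covered length and at the 23.5 and 24.1 percentiles in enrichment. Within 5 kb of the TSS, peaks covered 2.41 and 5.13 kb at NEUROD1, 2.69 and 3.06 kb at NEUROD2, 1300 and 1391 bp at NEUROG1, and 1.45 and 1.42 kb at NEUROG3. They covered 5.83 and 8.49 kb at NEUROG2, 3.32 and 4.12 kb at ATOH1, 5.67 and 7.07 kb at OLIG2, and 4.42 and 4.70 kb at HES5, where the value includes the peak of PANK4. The median of the 8, with that peak included, was 3.01 kb in replicate 1 and 4.41 kb in replicate 2. Protein-coding genes with H3K4me3 and no H3K27ac had medians of 1.74 and 1.95 kb, and those with both marks 3.15 and 3.35 kb. Thus 5 of the 8 genes lay above the median of the former in both libraries, and NEUROG1 and NEUROG3 below it. HES5 lay above it in replicate 1 only with the peak of PANK4, since its own peak was 1737 bp against a median of 1744.5 bp. That median counts all peaks within 5 kb, so neighbours' peaks at other genes are included. In the width of the TSS peak alone, HES5 stood at the 58.1 percentile in replicate 1, where the median was 1577 bp. Its own 2134 bp of replicate 2 lay above the median covered length. In enrichment, by contrast, all 8 genes lay below the median of genes with both marks in both libraries.

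**Figure D3:**
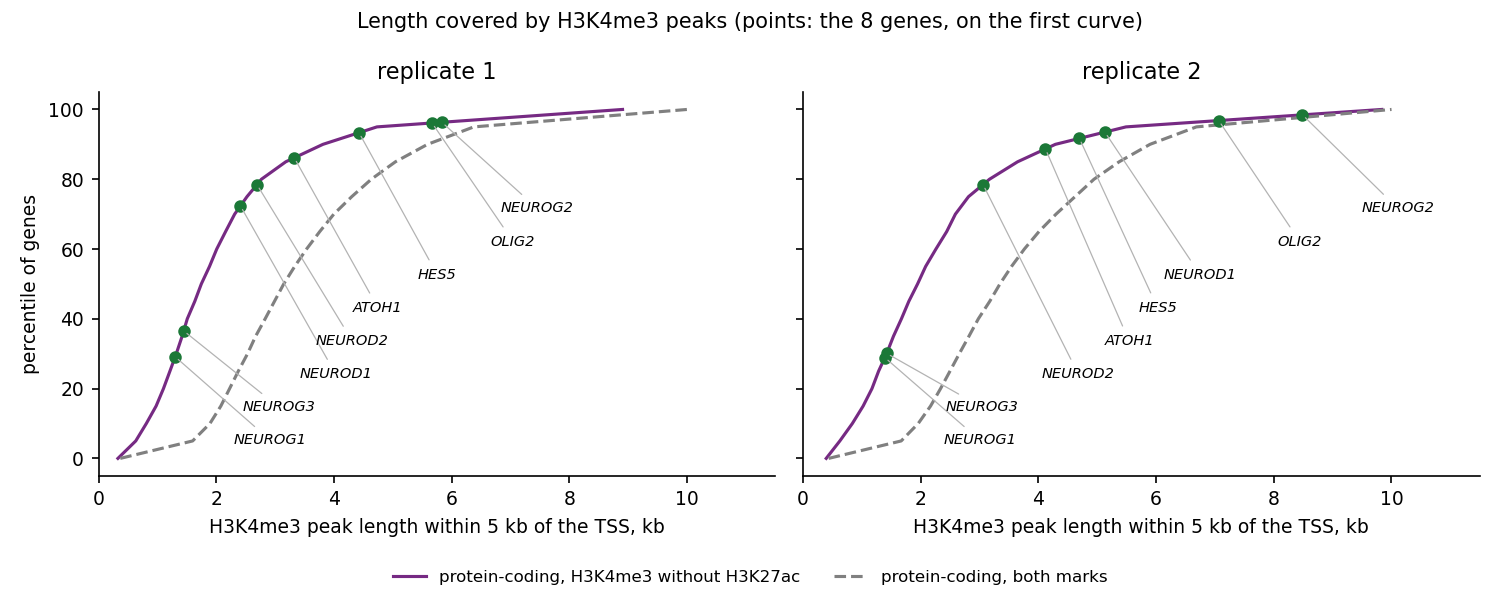
Cumulative distribution of the length covered by H3K4me3 peaks within 5 kb of the TSS (x axis, kb) in replicate 1 (left) and replicate 2 (right), for protein-coding genes with H3K4me3 and no H3K27ac (solid line) and with both marks (dashed line); the y axis is the percentile of genes. The 8 genes are drawn as points on the solid line, NEUROG2 included although it carried both marks, and 6 of them lie above the 50 percentile of that line in both panels. HES5 is 1 of these 6 through the peak of PANK4, without which its 1737 bp in replicate 1 would lie below the median of 1744.5 bp. That median includes neighbours' peaks at other genes.

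Away from the starts, the 8 neighbourhoods held very different numbers of peaks. Within 100 kb of the TSS, H3K27ac peaks numbered 2 and 3 at NEUROD1, 11 and 10 at NEUROD2, 5 and 6 at NEUROG1, 6 and 5 at NEUROG2, 6 and 9 at NEUROG3, 1 and 1 at ATOH1, 0 and 0 at OLIG2, and 6 and 5 at HES5. The median was 5.5 and 5 over the 8 genes, 4 and 4 over protein-coding genes with H3K4me3 alone, and 9 and 9 over all protein-coding genes. NEUROD2 was the 1 gene above the latter median in both libraries, and it shares its window with ERBB2, PGAP3, STARD3 and PPP1R1B, whose starts all carried H3K27ac.

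H3K4me3 peaks that did not touch the gene's own start window numbered 40 in replicate 1 and 43 in replicate 2 within 100 kb of the 8 genes. Of these, 15 in each replicate lay within 1 kb of the annotated start of another gene, and 25 and 28 lay at none. Starts of alternative transcripts were not counted, so a peak at no gene start may lie at one of them. Of the peaks at no gene start, 17 and 19 overlapped no H3K27ac peak of either library. OLIG2 had 3 and 4 such peaks, with enrichments between 3.00 and 5.18, all below its own TSS peak. Of those in replicate 1, the peak from 4.98 to 6.94 kb after the TSS (3.53) lay within the span of the TSS peak of replicate 2. The strongest peak at no gene start and without H3K27ac exceeded the TSS peak at NEUROG1 and HES5 in both libraries and at NEUROD1 in replicate 1. At HES5 it lay 47.8 and 47.9 kb upstream, inside MMEL1, with enrichments of 19.4 and 14.8. Counts of this kind were not computed around other genes or over all H3K4me3 peaks. They describe the 8 neighbourhoods and do not show whether such peaks are more frequent there than elsewhere.

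**Figure D4:**
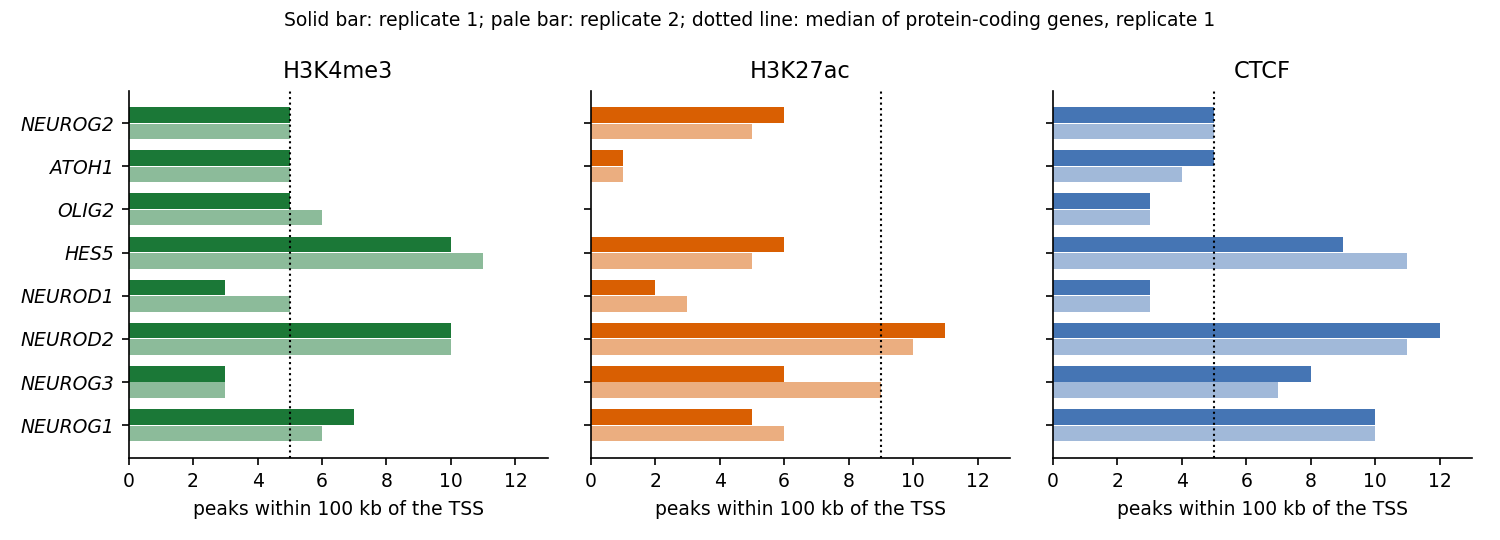
Number of H3K4me3, H3K27ac and CTCF peaks within 100 kb of the TSS of each gene (x axis, peaks); solid bars are replicate 1, pale bars replicate 2, and the dotted line is the median of protein-coding genes in replicate 1. H3K27ac counts ran from 0 at OLIG2 to 11 at NEUROD2, with a median line at 9.

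CTCF was found at the TSS in both libraries at 1 of the 8 genes, HES5, against 15.2% of all genes and 17.9% of protein-coding genes. Its enrichment at HES5 was 6.98 and 12.3 (9.65 ± 3.77, SD, n = 2), with the summit 731 bp after the TSS in the 3′ UTR in replicate 1 and 701 bp after it in a coding exon in replicate 2. The median CTCF peak had an enrichment of 19.7 and 19.2, above both. At NEUROG2 a weak CTCF peak (4.08) covered the TSS in replicate 2 and none was listed in replicate 1. At OLIG2 a CTCF peak of 9.31 and 9.23 began 1098 and 1027 bp after the TSS, just outside the 1 kb window and inside the H3K4me3 domain. At NEUROG2 the nearest CTCF peak of replicate 1 lay 4.43 kb away. For the other genes the nearest CTCF peak lay 34.3 and 34.2 kb from NEUROD1, 9.49 and 9.40 kb from NEUROD2, 14.2 and 14.2 kb from NEUROG1, and 16.0 and 15.9 kb from NEUROG3. ATOH1 differed between libraries: a peak of 5.42 lay 12.4 kb away in replicate 1 only, and the nearest in replicate 2 lay 36.2 kb away, with an enrichment of 60.7, and of 40.4 in replicate 1.

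CTCF peaks near these genes were searched for a core of the CTCF motif, written here as CCA, any 2 letters, AG, any 2 letters and GGC, on both strands within 100 bp of the summit. Over all CTCF summits, 27.2% and 25.5% held this core exactly, against 0.974% and 0.918% of windows of the same length 1 kb away. With up to 1 mismatch the shares were 73.5% and 71.7%, against 16.8% and 16.6%. The windows of 30 bases below show the best match at 4 peaks present in both libraries, with the core letters in capitals. The OLIG2 peak was chosen because it lies inside the gene, and the others for an exact match within 20 kb of HES5, NEUROD2 and NEUROG1, which are not the CTCF peaks nearest to those genes.
OLIG2, chr13:196598162-196598191, plus strand: cccttgcccCCAGGTGGGGGCgctaccggc
HES5, chr6:64400217-64400246, plus strand: cggcctgcaCCAGGAGGGGGCgcttctgag
NEUROD2, chr12:22695643-22695672, minus strand: tctcgtctgCCACCAGAGGGCagccccaac
NEUROG1, chr2:137783790-137783819, minus strand: cccttttccCCAACAGGTGGCgctgctttc
The OLIG2 match has 1 mismatch and lies 1338 bp after the TSS, inside the gene. The HES5 match is exact and lies 10.3 kb downstream of its TSS, under a peak of 11.06 and 10.6. The NEUROD2 match is exact and lies 13.8 kb upstream, under a peak of 55.8 and 51.6, and the NEUROG1 match is exact and lies 17.0 kb upstream, under a peak of 26.5 and 26.0. At the CTCF peak over the HES5 start the best match had 2 mismatches in both libraries, at the nearest peak of NEUROG1, 14.5 kb upstream, it had 1, and at the nearest peak of NEUROD2, 9.7 kb upstream, it was exact. A match is a description of letters under a peak and was not tested as a binding site.

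The nearest CTCF peaks of both libraries on either side enclosed each TSS in an interval of 152 kb at NEUROD1, 36.01 kb at NEUROD2, 83.1 kb at NEUROG1, 147 kb at NEUROG2, 63.9 kb at NEUROG3, 93.6 kb at ATOH1, 74.7 kb at OLIG2 and 26.5 kb at HES5. At OLIG2 and HES5 the downstream edge was a CTCF peak inside the gene, 1.38 and 0.731 kb after the TSS in replicate 1 (9.31 and 6.98). Those 2 intervals thus leave out part of the gene and, at HES5, the start of PANK4. Interval lengths and contents were not computed for other genes. NEUROD2, NEUROG1 and OLIG2 were alone in theirs, NEUROD1 shared its interval with CERKL, NEUROG3 with C14H10orf35 and HES5 with FAM213B, while NEUROG2 and ATOH1 shared theirs with a long non-coding RNA each. H3K27ac peaks inside the intervals numbered 0 in both libraries at NEUROD1, NEUROG3, ATOH1 and OLIG2, 0 and 1 at NEUROG1, 1 and 1 at NEUROD2 and at HES5, and 4 and 3 at NEUROG2.

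Short motifs in the 250 bases before the TSS were counted on both strands. The E-box (CANNTG), the site of bHLH dimers, occurred at 5 of the 8 genes, against 65.5% of all genes, with 4 copies at NEUROD1. The N-box (CACNAG), bound by HES repressors, occurred at NEUROG1 and, in 2 copies, at NEUROG2, against 33.2% of all genes. The RBPJ core (TGGGAA), through which Notch acts, occurred at NEUROD2, OLIG2 and, in 2 copies, at HES5, against 27.01%. CCAAT occurred at 4 genes, with 2 copies at HES5, against 31.6%, and TATAAA at none of the 8, against 11.07%. A single pair of matches overlapped, the E-box and the RBPJ core of NEUROD2, by 2 bases. No comparison of these shares was tested, and nothing is read from the matches about the factors.

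Other genes of the same families did not share a common pattern. As a background for the list counts, 11476 of the 19487 protein-coding genes had both marks in both libraries. H3K4me3 without H3K27ac was found at 1608 and neither mark at 5365. Of 14 other genes listed from bHLH families with neural members, 6 had H3K4me3 without H3K27ac, among them FERD3L and OLIG1. Both marks were present at 3 (ASCL2, ATOH7 and ATOH8), 4 had neither (NEUROD4, NEUROD6, NHLH1 and NHLH2), and BHLHE22 had H3K27ac in 1 library. Of the 4 with neither within 1 kb, NHLH2 had H3K4me3 farther out, covering 1.27 and 1.95 kb within 5 kb of the TSS. ATOH7, the paralog of ATOH1 that acts in retinal ganglion cells, had H3K27ac of 26.2 and 28.9, whereas ATOH1 had none.

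Among the other HES and HEY genes, 5 of 9 had both marks, with the highest H3K27ac at HES1 and HEY2, 3 had H3K4me3 alone (HES2, HES3 and HEYL), and HES4 had H3K27ac in 1 library. HES1, a Notch target expressed in many cell types, had H3K4me3 of 48.0 and 35.5 and H3K27ac of 22.9 and 21.5, against 18.8 and 6.16 for H3K4me3 and no H3K27ac peak at HES5. The ID genes, whose products block bHLH dimers, and the E-protein genes TCF3, TCF4 and TCF12, whose products are the dimer partners of the neural factors, had both marks at all 7 starts, with H3K27ac between 16.7 and 41.6. Mesodermal bHLH genes were divided, with both marks at 6 of 15, among them TWIST1, TWIST2 and TCF21, and H3K4me3 alone at 6, among them MYF6, MYOD1 and MYF5.

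Of 11 Notch pathway genes, 6 had both marks, DLL4 had H3K4me3 alone and 4 had neither at the annotated gene start. When the start of any annotated transcript was used, NOTCH2 and RBPJ, 2 of those 4, had both marks, which left NOTCH4 and DLL3 with neither. No class of the 8 neural genes changed with this choice, since each has 1 annotated transcript. The REST repressor complex, which silences neuronal genes outside the nervous system, had both marks at the 5 genes matched, REST itself included (H3K4me3 58.9 and 23.1, H3K27ac 16.9 and 19.9). NOTCH1, JAG2 and RCOR1 were not matched by name and were not analysed here.

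Marker genes were read in the same way as a check of the cell type. All 15 fibroblast markers, COL1A1, PDGFRA and VIM among them, had both marks at the TSS in both libraries. Neural progenitor markers had both marks at 2 of 5 (PAX6 and NES), H3K4me3 alone at SOX1 and FABP7, and H3K27ac in 1 library at SOX2. Neuron markers had both marks at 3 of 6 (DCX, MAP2 and SNAP25), H3K4me3 alone at STMN2 and SYP, and neither at RBFOX3. Glia markers had neither mark within 1 kb of the TSS at all 4, although H3K4me3 covered 0.787 and 0.74 kb within 5 kb at GFAP. TUBB3, a neuron marker, and S100B, a glia marker, were not matched by name and are not among these. All 4 epithelial markers had H3K4me3 without H3K27ac, as did 1 of 3 endothelial markers (KDR) and 1 of 3 blood markers (CD34). At SPI1, a blood marker, H3K27ac was listed without H3K4me3. Peaks are not transcript levels, and the part of other cell types in the H3K4me3 peaks of the 8 genes was not tested.

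**Figure D5:**
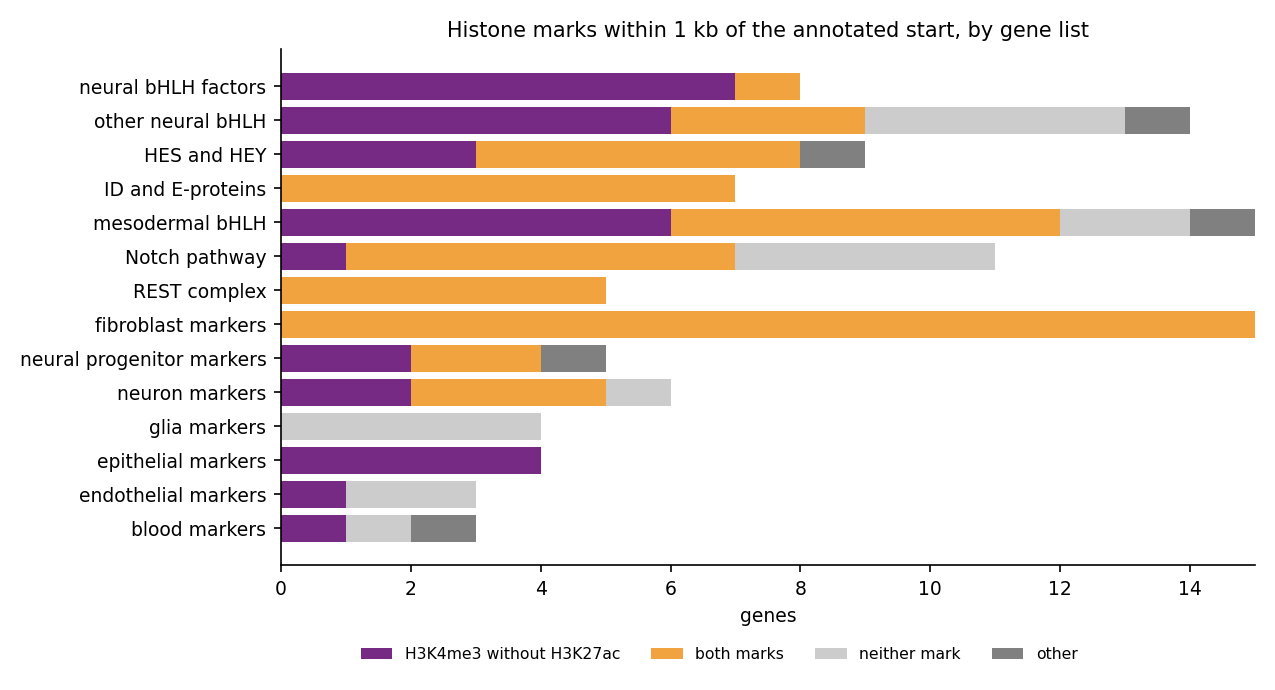
Number of genes (x axis) in each gene list with H3K4me3 in both libraries and H3K27ac in neither (purple), both marks in both libraries (orange), neither mark in either library (light grey) or another combination (dark grey) within 1 kb of the annotated start. The neural bHLH factors split 7 to 1 between H3K4me3 alone and both marks, whereas all 7 ID and E-protein genes and all 15 fibroblast markers had both. Over protein-coding genes, 11476 of 19487 had both.

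The protein-coding genes most alike to each of the 8 were ranked by the Euclidean distance over 12 values, the log2 of 1 plus the highest enrichment and of 1 plus the covered length in bp within 5 kb of the TSS in each of the 6 libraries. ATOH1 had the closest gene, ADRB1, at a distance of 0.119. NEUROG3 came next, with OTOG and USH1C, both on chromosome 2, at 0.190, and NEUROG1 followed with GPR50 at 0.211. The nearest gene was KLHL14 to NEUROD2 (0.312), PANK4 to HES5 (0.385, a neighbour that shares its window), SLITRK1 to NEUROD1 (0.467) and IRX4 to OLIG2 (0.802). NEUROG2 stood farthest from any other gene, with SP5 at 1.92. Within 5 kb of the TSS, NEUROG2, OLIG2 and HES5 had H3K27ac or CTCF peaks. The other genes of the 8 had no such peak in any library, so their values for H3K27ac and CTCF were all 0. The distances of the 8 genes are therefore not on an equal footing.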

How the data were processed

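The 6 libraries, 2 each for CTCF and the 2 histone marks, came from untreated PEFs. The authors aligned reads with Bowtie2 to Sscrofa11.1, kept uniquely mapped pairs, removed duplicates and called narrow peaks in each library with MACS2 against a control. Tool versions are not given in the sources used here. The deposited lists give for each peak its fold enrichment, that is the ratio of ChIP to control signal, its −log10 p-values and −log10 q-values, and an integer score, which was not used. They hold peaks with q-values above the 0.01 stated in the methods and were used as deposited. They hold no read counts, so the depth behind a peak is unknown and no counting interval was computed. The 2 input libraries were not analysed here.

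Peaks and RefSeq genes (annotation release 106) on chromosomes 1 to 18 and X were joined in Python 3.11.15 with NumPy 2.4.6 and pandas 2.3.3, and plotted with Matplotlib 3.10.9. A peak counted when at least 1 bp lay within 1 kb of the 5′ end of the gene, as present when both libraries had it and absent when neither had. Window counts and classes were tested on simulated data. With 2 libraries and 1 condition, no comparison was tested. The named genes were the 8 factors, up to 6 per list (highest mean enrichment, or differing from their list), the nearest neighbours and the most alike genes. Other genes behind counts of 5 or fewer were named after their values were seen. Genes and lists were chosen with earlier results of these data known. Alternatives covered the q-value, the window, the summit, the transcript start, the gene set and each replicate.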

Additional observations from a re-analysis of the deposited data

How the results depend on the processing

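Of 58 alternative values, 51 stayed within 1.5 times the value reported and 7 moved beyond it. With a −log10 q-value of at least 5, H3K27ac was present at 0 of the 8 genes in place of 1, since the peak of NEUROG2 was lost. With a window of 5 kb, H3K27ac was present at 2 genes (HES5 and NEUROG2) and CTCF at 3 (HES5, NEUROG2 and OLIG2) in place of 1 each. When the summit had to lie within 1 kb, H3K4me3 was present at 5 genes in place of 8, H3K4me3 without H3K27ac at 4 in place of 7, and neither mark at 1 (OLIG2) in place of 0. Leaving out each replicate in turn gave CTCF at 1 to 2 genes, since NEUROG2 has a CTCF peak in replicate 2. The share of all genes with H3K4me3 and no H3K27ac ranged from 6.61% to 8.59%. A limit of q at 0.01, chosen after the data were seen, changed no count of the 8 genes within 1 kb of the TSS and was not run for the peaks within 100 kb, of which 3 have a larger q-value. No paired analysis was possible because the results come from no test. The depth behind the peaks is unknown, each mark has 2 libraries, and an unlisted peak may be a weak one.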
